A study of Homo sapiens with 9 samples.

Results

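The extracellular matrix genes described here are the collagen chains, the laminin chains and a set of matrix glycoproteins and collagen-crosslinking enzymes in MDA-MB-231 cells depleted of AHR. They were chosen by name, as every gene of the count table with a symbol of the form of a collagen chain (COL, a number, A, a number) or a laminin chain (LAMA, LAMB or LAMC and a digit), and FN1, SPARC, THBS1, THBS2, TNC, NID1, NID2, HSPG2, AGRN, POSTN, FBN1, FBN2, LOX and LOXL1 to LOXL4. This gave 73 genes of the 60649 in the table, namely 44 collagen chains, 12 laminin chains, 12 glycoproteins and 5 oxidases of the lysyl oxidase family. The rule uses names and no measured value, although the set was proposed with earlier results of these data known.

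MDA-MB-231 is an established human breast cancer cell line, labelled as mammary epithelial cells in proliferating culture, and RNA was sequenced from 9 libraries in 3 groups of 3 replicates. The group PLKO-GFP carried a lentiviral control vector, while the groups shAHR#2 and shAHR#3 each carried a different short hairpin RNA against AHR, the gene of the aryl hydrocarbon receptor. The construct numbers are those of the sample labels, which differ from the numbering in the study's methods. In every group the cells were infected with lentivirus and selected with puromycin, and the surviving cells were pooled, so that a group is a selected population and not a single clone. No source says whether the replicates were separate cultures, and the p-values then measure the spread between these libraries, which may be technical. Because the RNA came from bulk culture, a smaller number of cells of a kind and less RNA per cell cannot be told apart.

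The extracellular matrix is the protein scaffold that cells secrete around themselves. Collagen chains wind into helices of partner chains, which then form fibrils, beaded filaments or, for collagen IV, the sheet of the basement membrane. Laminins are cross-shaped molecules of an alpha, a beta and a gamma chain that carry epithelial cells on that sheet, while perlecan and agrin link the networks to each other and to the cell surface. Fibronectin and fibrillin form fibres, the matricellular proteins (thrombospondins, tenascin, SPARC) modulate adhesion more than they bear load, and the lysyl oxidases crosslink collagen and elastin. In mammary epithelium the basement membrane is the boundary that carcinoma cells cross when they invade.

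Total counts per library were 15991396 to 20374460, and the 73 genes took 0.628% to 0.642% of the counts with PLKO-GFP, 0.752% to 0.774% with shAHR#2 and 0.691% to 0.717% with shAHR#3. The targeted gene AHR had a mean of 118 CPM (TMM-scaled counts, as a rate over the library total) with PLKO-GFP, 41.6 with shAHR#2 and 47.7 with shAHR#3. VIM, the vimentin of mesenchymal-type cells, was at a mean of 2634 CPM in the control and the epithelial keratin KRT8 at 284, while the progesterone receptor gene PGR and the basal keratin KRT5 were at or near 0. Other epithelial markers had control means of 304 CPM (KRT18), 99.8 (KRT19), 6.62 (EPCAM) and 0.909 (CDH1), and ERBB2 had 62.4. The summed markers of fibroblasts lay between 5.50 and 22.2 CPM in every library, those of endothelial cells between 6.53 and 14.01, and those of leukocytes between 1.55 and 3.38. DCN and PDPN, which mark fibroblasts, and ERG, which marks endothelium, had 0 or 1 count in every library. Other markers were higher, with means of up to 18.3 CPM for PDGFRB and 12.2 for PECAM1, both with shAHR#3. The leukocyte marker PTPRC had means of 0.119 CPM in PLKO-GFP, 1.38 with shAHR#2 and 1.00 with shAHR#3. In the same order CD14 had 0.957, 0.356 and 0.639 CPM and CD68 0.689, 0.929 and 0.909.

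Of the 73 genes 46 had enough counts to be tested, among 14274 genes tested in all with edgeR's quasi-likelihood test (Benjamini-Hochberg adjusted p under 0.05). With shAHR#2, 26 of the 46 rose relative to PLKO-GFP and 12 fell, against 32.6% and 33.2% of all genes tested, 65.8% in either direction. With shAHR#3, 26 rose and 11 fell, against 26.9% and 27.5% of all genes tested, 54.4% in either direction. Their median log2 fold change was 0.35 with the former and 0.36 with the latter construct, compared with medians of -0.0032 and -6.9e-05 over all genes tested. At a change of at least 2-fold, 8 were higher and 8 lower with shAHR#2 (5.95% and 5.9% of all genes tested), and 8 were higher and 5 lower with shAHR#3 (4.32% and 2.42%).

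By class, the laminins had the largest share of higher genes, 7 of 10 tested with either construct and 1 lower, followed by the collagens with 14 of 23 higher with either construct and 4 or 5 lower. Among the 4 matricellular genes tested none was higher with either construct, 4 were lower with shAHR#2 and 3 with shAHR#3. Both constructs moved 23 genes up (21.9% of all genes tested) and 7 down (22.6%), and 4 genes passed the threshold in opposite directions (2.03%). Since both comparisons use the same PLKO-GFP libraries, these shared counts are not independent of each other. The 23 higher genes comprised FN1 and FBN1, the perlecan gene HSPG2, laminin chains including LAMA2, LAMA4, LAMA5, LAMB1 and LAMC1, 12 collagen chains (COL1A1, COL4A1, COL4A2, COL6A1, COL6A2, COL6A3, COL7A1, COL8A2, COL9A2, COL17A1, COL18A1, COL27A1) and the oxidases LOX and LOXL2. The 7 lower genes were THBS1, THBS2, TNC, COL1A2, COL8A1, COL12A1 and LOXL4.

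**Figure D1:**
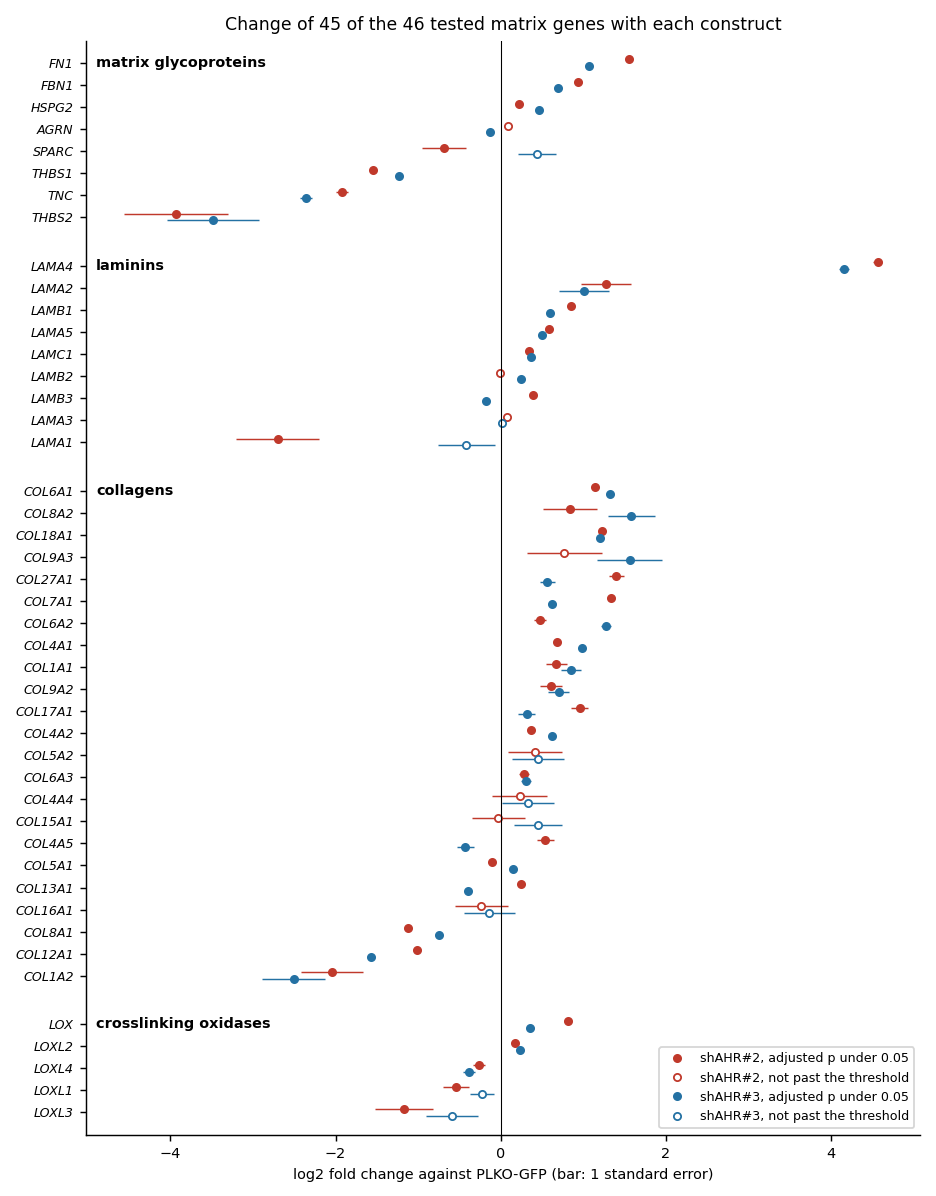
Log2 fold change of 45 of the 46 tested matrix genes against PLKO-GFP (horizontal axis, bars 1 standard error), with shAHR#2 in red and shAHR#3 in blue, filled where the edgeR adjusted p was under 0.05 and open otherwise. LAMA4 stands at the right end with 4.57 and 4.16, and THBS2, with few counts, at the left end with -3.93 and -3.48.

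Levels of different genes were compared per length, as mean CPM divided by the kilobases of annotated exon. That length joins all annotated exons of a gene, such as 18.6 kb for LAMB1 and 6.87 kb for LAMB2. Ranks per length therefore depend on the annotation. In plain CPM, the PLKO-GFP mean of LOXL2 was 292, below FN1 at 814 and LAMC1 at 393. In PLKO-GFP THBS1 was the highest of the 46 genes at 214 ± 4.49 CPM per kb (SD, n = 3). LOXL2 (48.8 ± 0.828 CPM per kb), FN1 (47.3 ± 0.620) and LAMC1 (46.5 ± 0.857) came next, with FN1 and LAMC1 apart by less than the SD of LAMC1, and LAMB3, LAMB2, COL6A1 and AGRN completed the 8 highest. In both depleted groups FN1 held the first place, at 139 ± 2.07 CPM per kb with shAHR#2 and 99.1 ± 0.582 with shAHR#3, and THBS1 the second, at 73.4 ± 2.22 and 90.7 ± 1.09. LAMA4 moved from rank 34 in PLKO-GFP to rank 17 with shAHR#2 and rank 19 with shAHR#3.

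**Figure D2:**
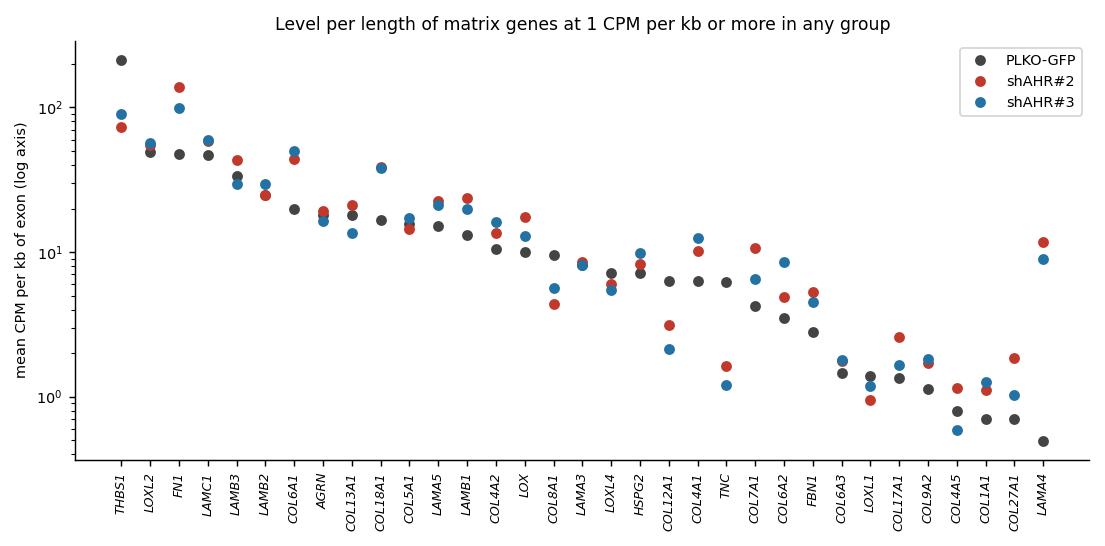
Mean CPM per kb of exon (log axis) of those of 45 tested matrix genes that reached 1 CPM per kb in any group, ordered by their level in PLKO-GFP, with the groups in grey, red and blue. THBS1 leads in the control at 214 and FN1 in both depleted groups at 139 and 99.1.

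FN1 (ENSG00000115414.21; chromosome 2 of GRCh38, 215360440 to 215436073, minus strand) encodes fibronectin, the fibre-forming ligand of integrins with an RGD site. It was counted at 816, 802 and 823 CPM in the 3 PLKO-GFP libraries, at 2403, 2432 and 2361 with shAHR#2 and at 1718, 1703 and 1698 with shAHR#3. The 3 groups did not overlap. The log2 fold change was 1.56 (standard error 0.025, edgeR adjusted p = 1.94e-35), or 2.95-fold, with shAHR#2 and 1.07 (standard error 0.024, edgeR adjusted p = 1.04e-29), or 2.10-fold, with shAHR#3. The 250 bases before its RefSeq start site (GRCh38.p14, chr2:215436069-215436318, minus strand) are shown because FN1 was, in CPM, the most abundant of the genes that rose. They contain the palindromic cyclic AMP response element TGACGTCA, in capitals, which begins at base -183 from the start site.
FN1: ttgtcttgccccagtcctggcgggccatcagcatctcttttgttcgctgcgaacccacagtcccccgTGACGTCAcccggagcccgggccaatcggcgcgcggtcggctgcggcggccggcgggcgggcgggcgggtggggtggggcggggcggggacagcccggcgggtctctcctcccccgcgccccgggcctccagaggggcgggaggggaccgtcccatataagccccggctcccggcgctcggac

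FBN1, the fibrillin of the microfibrils on which elastin is laid down, was at 53.5, 51.0 and 50.03 CPM in PLKO-GFP, at 99.0, 100.5 and 95.8 with shAHR#2 and at 84.5, 85.0 and 80.0 with shAHR#3. Every depleted library was above every control library, and the log2 fold changes were 0.94 (standard error 0.042) and 0.69 (standard error 0.042), with edgeR adjusted p = 5.6e-21 and 1.33e-16. FBN2, the fibrillin of developing tissue, had a total of 19 counts over the 9 libraries and was not tested.

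THBS1 (ENSG00000137801.11; chromosome 15, 39581079 to 39599466, plus strand), the matricellular thrombospondin-1 that binds CD36 and CD47 and is known as an inhibitor of angiogenesis, fell with both constructs. Its counts were 1927, 2004 and 1940 CPM in PLKO-GFP, 672, 692 and 652 with shAHR#2 and 823, 842 and 828 with shAHR#3, so that the groups did not overlap. The log2 fold change was -1.54 (standard error 0.026, edgeR adjusted p = 1.7e-34) with shAHR#2, a 2.91-fold fall, and -1.24 (standard error 0.026, edgeR adjusted p = 5.83e-31) with shAHR#3, a 2.36-fold fall. The 22 other tested genes within 1 Mb of THBS1 had a median log2 fold change of -0.01 and 0.03. Among them THBS1-IT1, which lies within the bounds of THBS1, had -5.53 and -3.85, and C15orf54 -2.17 and -3.36 (edgeR adjusted p of at most 0.000159). RP11-624L4.1 had -2.14 and -3.18 (edgeR adjusted p = 0.00147 and 6.9e-05). FSIP1, on the opposite strand, had -1.12 (edgeR adjusted p = 0.0275) and -0.76 (edgeR adjusted p = 0.112). GPR176, which lies nearer to THBS1 than C15orf54, had 0.03 and -0.14 (edgeR adjusted p = 0.791 and 0.154). The highest was ANKRD63 with 1.03 and 1.15. The window before the RefSeq start site of THBS1 (GRCh38.p14, chr15:39580829-39581078, plus strand) is shown as that of the most abundant gene of the set in PLKO-GFP. It holds the core GCGTG of the xenobiotic response element to which the aryl hydrocarbon receptor binds, in capitals, from base -227.
THBS1: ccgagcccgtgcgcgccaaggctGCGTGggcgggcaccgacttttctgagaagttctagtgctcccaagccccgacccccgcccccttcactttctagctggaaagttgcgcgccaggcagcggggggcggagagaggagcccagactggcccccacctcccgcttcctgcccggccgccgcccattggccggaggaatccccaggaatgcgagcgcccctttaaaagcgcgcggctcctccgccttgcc

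TNC, tenascin-C, an adhesion-modulating glycoprotein of wounds and tumor stroma, was at 58.1, 64.2 and 55.2 CPM in PLKO-GFP, at 15.2, 15.6 and 16.1 with shAHR#2 and at 11.7, 10.8 and 12.01 with shAHR#3. All depleted libraries were below all control libraries, 3.79-fold with shAHR#2 (log2 fold change -1.92, standard error 0.070, edgeR adjusted p = 5.06e-24) and 5.13-fold with shAHR#3 (-2.36, standard error 0.071, edgeR adjusted p = 4.64e-26). THBS2, thrombospondin-2, had few counts, namely 17, 17 and 24 in the PLKO-GFP libraries, 2, 0 and 1 with shAHR#2 and 3, 1 and 1 with shAHR#3. The ratio of the control to the depleted rate was 16.8 with shAHR#2 (95% exact counting interval 5.48 to 84.0) and 12 with shAHR#3 (4.86 to 38.3), intervals that cover counting error alone. THBS2-AS1, whose exons overlap those of THBS2, had 4 to 17 counts, above THBS2 in every depleted library, and reads could have been shared. SPARC, the collagen-binding osteonectin, was at 1.58, 1.65 and 2.08 CPM in PLKO-GFP, at 1.23, 1.09 and 0.949 with shAHR#2 and at 2.47, 1.94 and 2.78 with shAHR#3. It was lower with shAHR#2 (log2 fold change -0.69, standard error 0.27, edgeR adjusted p = 0.0254), a call that DESeq2 did not make (adjusted p = 0.0554) and that was lost without PLKO-GFP replicate 3, shAHR#2 replicate 2 or shAHR#2 replicate 3 (edgeR adjusted p = 0.0548 to 0.117). The log2 fold change of SPARC with shAHR#3 was 0.44 (standard error 0.23, edgeR adjusted p = 0.103). Of the 8 fibroblast markers 4 were tested, and their sum was 9.67 to 11.01 CPM in PLKO-GFP, 5.50 to 6.04 with shAHR#2 and 19.96 to 22.2 with shAHR#3, most of it PDGFRB, which is the same order of groups as for SPARC. THY1 had another order, with means of 1.02 CPM in PLKO-GFP, 0.0358 with shAHR#2 and 0.888 with shAHR#3, while LUM had 0.408, 0.230 and 1.13. PDGFRB and THY1 fell with shAHR#2 (edgeR adjusted p = 2.06e-07 and 1.22e-06), and PDGFRB and LUM rose with shAHR#3 (edgeR adjusted p = 2.47e-13 and 0.00247). ACTA2 had 8 to 17 counts in each library, FAP and PDGFRA 0 to 4, and DCN and PDPN 0 or 1, and the part of such cells in the values of SPARC was not tested. The fifth matricellular gene, POSTN, which encodes periostin, had no count.

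LAMA4 (ENSG00000112769.20; chromosome 6, 112107931 to 112254939, minus strand) showed the largest rise of the 46 genes with either construct. It encodes the laminin alpha-4 chain, which is best known from the basement membranes of blood vessels, muscle and nerve. The PLKO-GFP libraries had 5.65, 6.04 and 6.18 CPM, the shAHR#2 libraries 143, 141 and 141, and the shAHR#3 libraries 111, 105 and 104. The gap between the depleted and the control libraries was many times the spread within any group. The log2 fold change was 4.57 (standard error 0.058, edgeR adjusted p = 5.07e-38), or 23.7-fold, with shAHR#2 and 4.16 (standard error 0.059, edgeR adjusted p = 4.02e-36), or 17.9-fold, with shAHR#3.

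The 6 endothelial markers, 2 of them tested, summed to 6.53 to 7.00 CPM in PLKO-GFP, 10.99 to 13.3 with shAHR#2 and 12.1 to 14.01 with shAHR#3. PECAM1 moved with LAMA4, from a mean of 2.40 CPM in PLKO-GFP to 11.2 and 12.2, while KDR moved the other way, from 4.21 to 0.618 and 0.332. VWF, CDH5, TEK and ERG stayed at or under 0.586 CPM in every library. VWF had 0 counts in each PLKO-GFP library, 4, 5 and 7 with shAHR#2 and 9, 4 and 4 with shAHR#3. CDH5 had 0 counts in each PLKO-GFP library, 2, 0 and 0 with shAHR#2 and 1, 7 and 12 with shAHR#3. TEK had 0 to 2 counts in each library and ERG 0. The 10 other tested genes within 1 Mb of LAMA4 had a median log2 fold change of -0.03 with shAHR#2 and -0.06 with shAHR#3, from C6orf3 (-4.70 and -1.24) to FYN (0.72 and 0.34). A gene on the opposite strand that shares exon sequence with LAMA4 had no count in any library. The window before the RefSeq start site of LAMA4 (GRCh38.p14, chr6:112254568-112254817, minus strand) is shown for the gene with the largest change and held none of the 3 motifs searched. This window lies within the gene bounds given above, which reach to 112254939, and the bases upstream of that end were not searched.
LAMA4: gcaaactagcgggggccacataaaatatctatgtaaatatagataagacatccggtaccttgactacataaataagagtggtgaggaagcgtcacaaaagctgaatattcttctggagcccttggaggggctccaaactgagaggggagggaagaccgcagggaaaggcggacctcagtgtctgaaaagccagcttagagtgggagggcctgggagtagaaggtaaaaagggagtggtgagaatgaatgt

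LAMB3 and LAMA3 encode a beta and an alpha chain of the laminin of hemidesmosomes, the junctions that fix epithelial cells to the basement membrane. LAMB3 was at 154, 155 and 156 CPM in PLKO-GFP, at 201, 202 and 204 with shAHR#2 and at 137, 132 and 144 with shAHR#3, higher with the former (log2 fold change 0.38, standard error 0.032, edgeR adjusted p = 2.98e-13) and lower with the latter (-0.17, standard error 0.033, edgeR adjusted p = 2.07e-05). LAMA3 had a log2 fold change of 0.07 (standard error 0.034, edgeR adjusted p = 0.0539) with shAHR#2 and 0.02 (standard error 0.034, edgeR adjusted p = 0.708) with shAHR#3. The value of LAMA3 with shAHR#2 passed the threshold under 6 alternatives, among them DESeq2's size factors, a mean of at least 50 counts and a fit of the compared groups alone (edgeR adjusted p = 0.0254 to 0.0486).

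The broadly expressed chains that assemble with LAMA4 or LAMA5 rose by less than LAMA4. LAMB1, the beta-1 chain, was at 248, 236 and 246 CPM in PLKO-GFP, at 438, 441 and 433 with shAHR#2 and at 372, 358 and 375 with shAHR#3, a log2 rise of 0.85 and then 0.60 (standard error 0.028 each). LAMC1, the gamma-1 chain, was at 400, 386 and 393 CPM in PLKO-GFP, and changed by 0.34 and 0.36 on the log2 scale (standard error 0.026 each). LAMA5, the main alpha chain of adult epithelial basement membranes, was at 208, 215 and 223 CPM in PLKO-GFP and changed by 0.58 and 0.50 (standard error 0.033 each). For these 3 genes the largest edgeR adjusted p in either comparison was 6.02e-14, and no depleted library fell within the range of the controls. LAMA5 lies on chromosome 20, as does COL9A3. The 382 genes tested there had a median log2 fold change of -0.31 with shAHR#2 and -0.14 with shAHR#3. LAMB2, the beta-2 chain of muscle and kidney basement membranes, had a log2 fold change of -0.01 (standard error 0.035, edgeR adjusted p = 0.791) with shAHR#2 and rose by 0.25 (standard error 0.034, edgeR adjusted p = 9.63e-08) with shAHR#3.

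The remaining laminin alpha chains were near the detection limit. LAMA1, a chain of embryonic basement membranes, had 23, 20 and 19 counts in the PLKO-GFP libraries, 1, 4 and 3 with shAHR#2 and 15, 21 and 12 with shAHR#3. LAMA1 was lower with shAHR#2 (log2 fold change -2.70, standard error 0.50, edgeR adjusted p = 1.2e-05), while the value with shAHR#3 was -0.42 (standard error 0.34, edgeR adjusted p = 0.317). LAMA2, the alpha-2 chain of muscle, was at 0.608 to 1.02 CPM in PLKO-GFP, at 1.35 to 2.25 with shAHR#2 and at 1.46 to 1.69 with shAHR#3, higher with both (log2 fold change 1.28 and 1.01, edgeR adjusted p = 0.000339 and 0.00506).

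**Figure D3:**
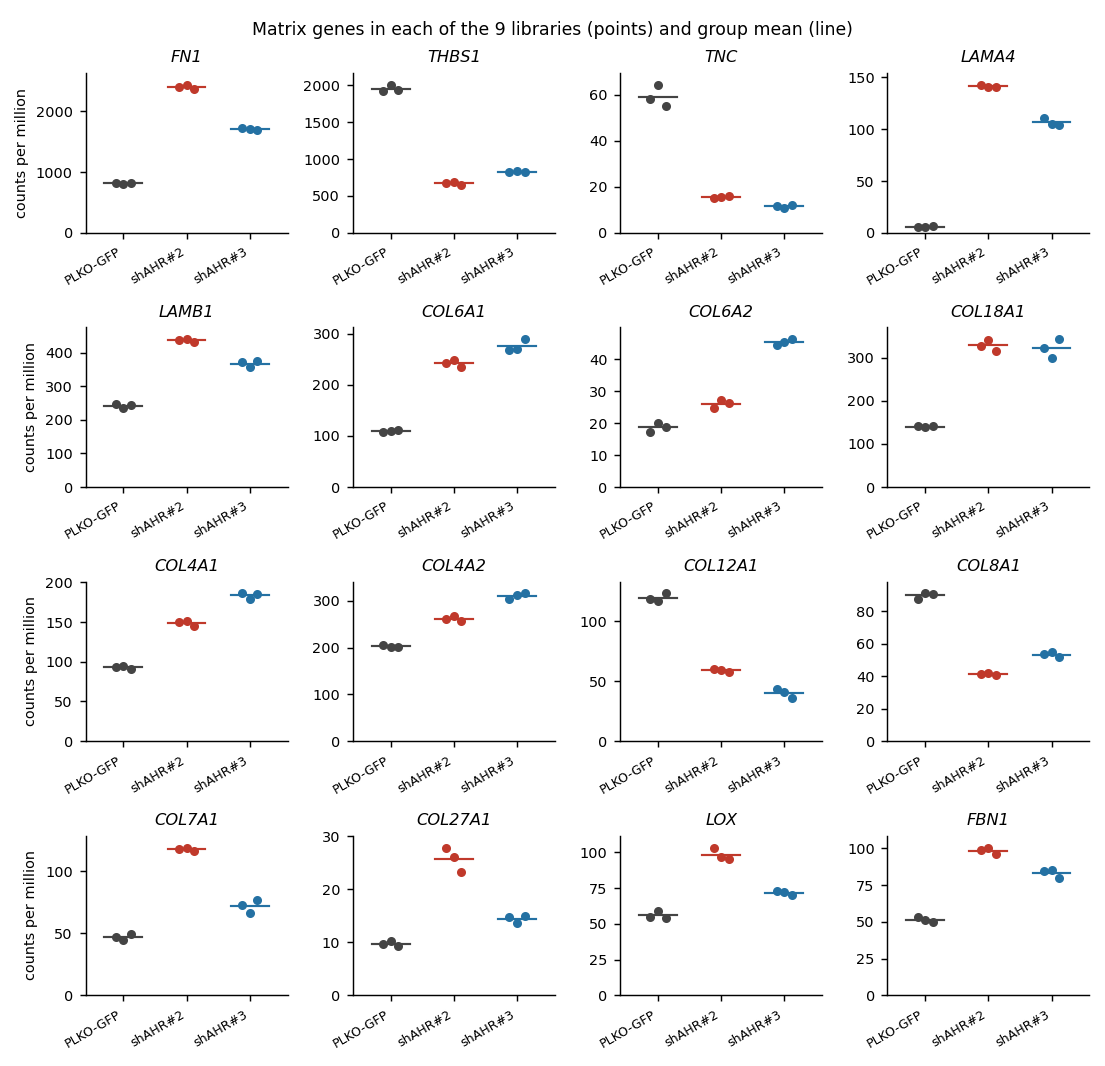
CPM (linear axes from 0) of 16 matrix genes in each of the 9 libraries (points) with the mean of each group (line). In each panel the depleted libraries lie apart from the PLKO-GFP libraries, above them except for THBS1, TNC, COL12A1 and COL8A1, and LAMA4 goes from about 6 to over 100 CPM.

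COL4A1 and COL4A2 encode the chains of the common collagen IV network, the sheet of every basement membrane. COL4A1 was at 93.1, 95.1 and 90.7 CPM in PLKO-GFP, at 150, 152 and 146 with shAHR#2 and at 186, 180 and 186 with shAHR#3. COL4A2 was at 205, 202 and 202 CPM in PLKO-GFP, at 261, 268 and 257 with shAHR#2 and at 305, 312 and 316 with shAHR#3. Both genes were higher in every depleted library, and higher with shAHR#3 than with shAHR#2. The log2 fold changes of COL4A1 were 0.68 and 0.98 (edgeR adjusted p = 1.32e-19 and 1.64e-24) and those of COL4A2 0.37 and 0.61 (edgeR adjusted p = 3.5e-14 and 1.26e-20), with standard errors of at most 0.034. These genes lie head to head on chromosome 13 and share a promoter, and the 126 bases between their RefSeq start sites at 110307157 (COL4A1, minus strand) and 110307284 (COL4A2, plus strand) are shown because they serve a pair that moved together. This interval (GRCh38.p14, chr13:110307158-110307283, written on the plus strand) has a GC content of 80.2% and none of the 3 motifs. In the search of the 250 bases before each start site, however, COL4A2 held the core of the xenobiotic response element. That match does not lie within these 126 bases.
COL4A1-COL4A2: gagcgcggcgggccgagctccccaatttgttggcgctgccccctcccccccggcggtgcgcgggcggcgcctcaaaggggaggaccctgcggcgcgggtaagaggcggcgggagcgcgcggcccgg

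COL4A5, a chain of the more restricted collagen IV network of kidney and eye, was at 8.92, 9.09 and 10.3 CPM in PLKO-GFP, at 14.8, 12.9 and 13.4 with shAHR#2 and at 7.00, 7.16 and 6.93 with shAHR#3. It was higher with shAHR#2 (log2 fold change 0.54, standard error 0.10, edgeR adjusted p = 1.21e-05) and lower with shAHR#3 (-0.43, standard error 0.11, edgeR adjusted p = 0.000959). COL4A5 lies on the X chromosome, where the 447 genes tested had a median log2 fold change of -0.24 with shAHR#2 and -0.32 with shAHR#3. COL4A4 had between 15 and 28 counts in each library and did not pass the test with either construct, and its partners COL4A3 and COL4A6 were not tested.

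Collagen VI, the beaded filament between basement membrane and stroma, is built from an alpha-1, an alpha-2 and a larger alpha-3 chain, and the 3 genes expressed here rose with both constructs by unequal amounts. COL6A1 was at 108, 110 and 112 CPM in PLKO-GFP, at 243, 248 and 236 with shAHR#2 and at 267, 270 and 289 with shAHR#3, which are log2 fold changes of 1.14 (standard error 0.034, edgeR adjusted p = 7.07e-27) and 1.33 (standard error 0.033, edgeR adjusted p = 1.02e-28). COL6A2 was at 17.3, 20.1 and 18.8 CPM in PLKO-GFP, at 24.8, 27.1 and 26.4 with shAHR#2 and at 44.4, 45.4 and 46.3 with shAHR#3, that is, it rose by 0.47 and 1.27 on the log2 scale (standard errors 0.071 and 0.065). COL6A3 lay within 30.8 to 32.1 CPM in PLKO-GFP, within 37.0 to 39.8 with shAHR#2 and within 38.0 to 39.4 with shAHR#3, and rose by 0.28 and 0.31 on the log2 scale. The edgeR adjusted p of COL6A2 and COL6A3 was at most 5.85e-05.

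COL18A1, the basement membrane collagen whose C-terminal fragment is endostatin, was at 140, 139 and 141 CPM in PLKO-GFP, at 327, 342 and 316 with shAHR#2 and at 322, 299 and 343 with shAHR#3. It rose 2.34-fold (log2 fold change 1.23, standard error 0.036, edgeR adjusted p = 7.81e-27) and 2.29-fold (1.198, standard error 0.036, edgeR adjusted p = 4.24e-26), and the groups of the constructs overlapped. COL18A1, COL6A1 and COL6A2 lie on chromosome 21, where the 137 genes tested had a median log2 fold change of 0.07 with shAHR#2 and 0.05 with shAHR#3. The 27 other tested genes within 1 Mb of COL18A1 had medians of 0.30 and 0.20, and the 18 within 1 Mb of COL6A1 had 0.31 and 0.15. Both sets hold COL6A2 and the other gene of the pair, and they reach from PCBP3 (-3.77 and -2.45) to genes such as ITGB2 near COL18A1, which rose by 1.01 and 1.24. COL7A1, the anchoring fibril collagen of the skin, was at 46.9, 44.7 and 49.2 CPM in PLKO-GFP, at 118, 119 and 117 with shAHR#2 and at 73.3, 66.4 and 76.9 with shAHR#3, a log2 rise of 1.33 and 0.62 (standard errors 0.046 and 0.048).

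COL17A1, the transmembrane collagen of hemidesmosomes, was at 7.94 to 11.1 CPM in PLKO-GFP, at 16.8 to 19.04 with shAHR#2 and at 10.9 to 12.2 with shAHR#3. It was higher with shAHR#2 (log2 fold change 0.95, standard error 0.10, edgeR adjusted p = 1.65e-10), and its smaller rise with shAHR#3 (0.31, standard error 0.11, edgeR adjusted p = 0.0115), where the groups overlapped, did not pass without PLKO-GFP replicate 2 (0.21, edgeR adjusted p = 0.127). COL13A1, another transmembrane collagen, was at 206, 206 and 209 CPM in PLKO-GFP, at 251, 239 and 244 with shAHR#2 and at 151, 156 and 164 with shAHR#3, higher with the former (log2 fold change 0.24, standard error 0.031, edgeR adjusted p = 1.1e-08) and lower with the latter (-0.40, standard error 0.031, edgeR adjusted p = 1.46e-13).

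The fibrillar collagens, which make the load-bearing fibrils of connective tissue, were mostly low. COL1A1 was at 7.12, 5.09 and 6.73 CPM in PLKO-GFP, at 10.5, 8.73 and 10.8 with shAHR#2 and at 10.8, 10.3 and 12.8 with shAHR#3, higher with both (log2 fold change 0.67 and 0.85, standard error 0.13 and 0.12, edgeR adjusted p = 1.69e-05 and 2.32e-07). Its partner in collagen I, COL1A2, went the other way, from 31, 31 and 39 counts in the PLKO-GFP libraries to 8, 8 and 5 with shAHR#2 and 4, 11 and 3 with shAHR#3 (log2 fold change -2.05 and -2.51, standard error 0.38 each, edgeR adjusted p = 1.09e-05 and 7.35e-07). COL5A1, which sets the diameter of collagen I fibrils, was the most abundant fibrillar chain per length at 15.7 CPM per kb in PLKO-GFP, and differed from the control by -0.11 with shAHR#2 and 0.14 with shAHR#3 on the log2 scale (standard error 0.030 and 0.029, edgeR adjusted p = 0.00147 and 7.11e-05). COL27A1, a fibrillar collagen of cartilage, was at 9.71, 10.2 and 9.37 CPM in PLKO-GFP, at 27.9, 26.1 and 23.3 with shAHR#2 and at 14.8, 13.6 and 14.9 with shAHR#3 (log2 fold change 1.40 and 0.56, standard error 0.087 and 0.093).

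COL12A1, a collagen that decorates the surface of collagen I fibrils, was at 119, 117 and 123 CPM in PLKO-GFP, at 60.2, 59.5 and 57.9 with shAHR#2 and at 43.8, 40.9 and 36.0 with shAHR#3. It was lower in every depleted library, 2.02-fold (log2 fold change -1.01, standard error 0.046, edgeR adjusted p = 6.94e-21) and 2.98-fold (-1.57, standard error 0.048, edgeR adjusted p = 6.55e-26). The short-chain collagen COL8A1, a vessel wall component, was at 87.8, 91.1 and 91.0 CPM in PLKO-GFP, at 41.3, 41.7 and 40.6 with shAHR#2 and at 53.4, 55.1 and 51.8 with shAHR#3 (log2 fold change -1.13 and -0.75, standard error 0.045 and 0.042, edgeR adjusted p = 8.89e-23 and 8.53e-18). Its close relative COL8A2 moved up from a low level, with 0.699 to 1.07 CPM in the PLKO-GFP libraries, 1.07 to 1.86 in those of shAHR#2 and 1.59 to 3.07 in those of shAHR#3 (log2 fold change 0.84 and 1.58, edgeR adjusted p = 0.0230 and 1.55e-05). The call of COL8A2 with shAHR#2 was lost without any of 4 single libraries, PLKO-GFP replicates 2 and 3 and shAHR#2 replicates 2 and 3 (edgeR adjusted p = 0.0641 to 0.110). COL9A3, a chain of cartilage collagen IX, had 5 to 10 counts in the PLKO-GFP libraries, 18, 7 and 8 with shAHR#2 (log2 fold change 0.77, edgeR adjusted p = 0.136) and 18 to 30 with shAHR#3 (log2 fold change 1.56, standard error 0.40, edgeR adjusted p = 0.00102), but TCFL5, whose exons overlap it, had 456 to 886 counts, and reads could have been shared between these genes.

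**Figure D4:**
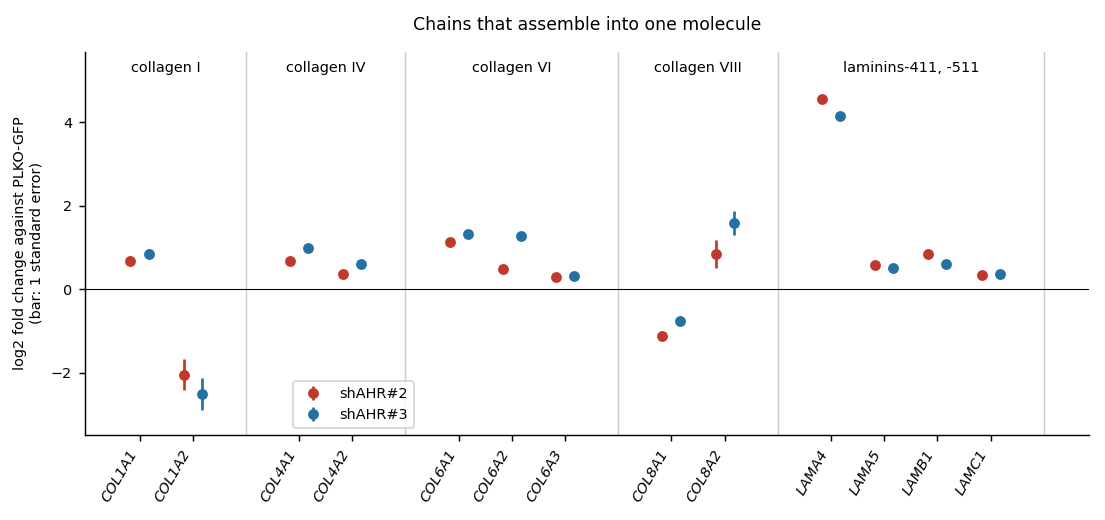
Log2 fold change against PLKO-GFP (vertical axis, bars 1 standard error) of chains that assemble with each other, for collagens I, IV, VI and VIII and for the laminins of LAMA4 or LAMA5 with LAMB1 and LAMC1. COL1A1 and COL1A2 lie on opposite sides of 0, as do COL8A1 and COL8A2, while COL4A1, COL4A2, COL6A1, COL6A2 and COL6A3 lie above 0 with both constructs.

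The linkers of the basement membrane moved little. HSPG2, perlecan, the large heparan sulfate proteoglycan, was at 125, 130 and 133 CPM in PLKO-GFP, at 154, 159 and 140 with shAHR#2 and at 186, 173 and 178 with shAHR#3, higher with both (log2 fold change 0.22 and 0.47, standard error 0.039 and 0.037, edgeR adjusted p = 4.89e-06 and 2.33e-13). AGRN, agrin, which clusters acetylcholine receptors at the neuromuscular junction, had a log2 fold change of 0.09 (standard error 0.043, edgeR adjusted p = 0.0772) with shAHR#2 and -0.14 (standard error 0.043, edgeR adjusted p = 0.00775) with shAHR#3, where its libraries at 174, 162 and 197 CPM overlapped the control at 186, 199.5 and 200.4. DESeq2 did not call this fall (adjusted p = 0.139), nor did edgeR without shAHR#3 replicate 2 (adjusted p = 0.134). The value with shAHR#2 passed the threshold without the filter on low counts, in a fit of the compared groups alone, and without shAHR#2 replicate 3, shAHR#3 replicate 2 or shAHR#3 replicate 3 (edgeR adjusted p = 0.00817 to 0.0383). The nidogens, which bridge laminin and collagen IV, were at 0 or 1 count (NID2) and 0 counts (NID1) in every library, and whether a gene listed at 0 reflects its RNA or the counting was not tested.

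Among the crosslinking oxidases, LOX, the founding lysyl oxidase, was at 54.8, 59.2 and 54.2 CPM in PLKO-GFP, at 103.5, 97.0 and 95.1 with shAHR#2 and at 73.4, 72.3 and 70.1 with shAHR#3. The 3 groups did not overlap, and the log2 fold change was 0.81 (standard error 0.044, edgeR adjusted p = 1.18e-18) and 0.36 (standard error 0.045, edgeR adjusted p = 1.27e-08). LOX lies on chromosome 5, where the 656 genes tested had a median log2 fold change of -0.48 with shAHR#2 and -0.26 with shAHR#3. SPARC, on the same chromosome, was named above as lower with shAHR#2. Of the 656 genes, 341 were higher with shAHR#3 than with shAHR#2 and 52 lower (edgeR adjusted p under 0.05). LOXL2, which also crosslinks collagen IV and was second of the 46 genes in CPM per kb of annotated exon in the control, changed by 0.17 and 0.23 (standard error 0.028 and 0.027, edgeR adjusted p = 2.14e-06 and 5.9e-09). LOXL4 was lower by 0.26 and 0.39 on the log2 scale (log2 fold change -0.26 and -0.39, edgeR adjusted p = 0.00214 and 1.77e-05). LOXL4 lies on chromosome 10, as do COL13A1 and COL17A1. The 573 genes tested there had a median log2 fold change of -0.32 with shAHR#2 and -0.15 with shAHR#3. LOXL1, which serves elastic fibres, and LOXL3 were called lower with shAHR#2 alone (log2 fold change -0.55 and -1.17, edgeR adjusted p = 0.00273 and 0.00409). With shAHR#3 LOXL1 had -0.23 (edgeR adjusted p = 0.188) and LOXL3 -0.59 (edgeR adjusted p = 0.114). LOXL3 had few counts, namely 16, 30 and 27 in the PLKO-GFP libraries, 12, 8 and 8 with shAHR#2 and 14, 18 and 18 with shAHR#3.

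The constructs were also compared directly, shAHR#3 against shAHR#2. shAHR#3 exceeded shAHR#2 in 12 of the 46 and fell below it in 16, against 21.9% and 20.4% of all genes tested, 42.3% in either direction, and the median log2 difference of the 46 was 0.03. At least 2-fold differences were seen for 2 higher and 0 lower genes (2.68% and 1.04% of all genes tested). The former were LAMA1 (log2 difference 2.29, standard error 0.53, edgeR adjusted p = 0.000476) and SPARC (1.13, standard error 0.26, edgeR adjusted p = 0.000435), both of few counts. Among the genes that rose with both constructs, FN1 (-0.49), LAMA4 (-0.41), LAMB1 (-0.25), COL7A1 (-0.71), COL27A1 (-0.84), COL17A1 (-0.64), FBN1 (-0.24) and LOX (-0.46) were lower with shAHR#3 than with shAHR#2, with edgeR adjusted p values of at most 3.46e-06. COL4A1 (0.30), COL4A2 (0.25), COL6A1 (0.19), COL6A2 (0.80) and HSPG2 (0.25) were higher with shAHR#3, with edgeR adjusted p values of at most 4.59e-06. Among the genes that fell with both, TNC (-0.44) and COL12A1 (-0.56) were lower with shAHR#3, whereas THBS1 (0.31) and COL8A1 (0.37) were higher, with edgeR adjusted p values of at most 7.27e-05. AHR itself was higher with shAHR#3 (log2 difference 0.19, standard error 0.053, edgeR adjusted p = 0.0028), and a difference between the hairpins cannot be told apart from a difference in the level of AHR.

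The 27 genes that were not tested comprised 11 without a count in any library (COL2A1, COL5A3, COL6A5, COL6A6, COL9A1, COL10A1, COL19A1, COL22A1, COL23A1, NID1 and POSTN) and 16 with a total of 1 to 65 counts over the 9 libraries. A count of 0 allows up to 3 counts, or 0.147 to 0.188 CPM at these depths. The 16 included COL3A1 with 5 counts, COL11A1 with 5, COL24A1 with 26, LAMC3 with 8, LAMB4 with 19, COL11A2 with 57 and COL4A6 with 65. Of the tested genes, COL5A2, COL15A1 and COL16A1, at means of 0.918 to 1.48 CPM, passed with neither construct. COL9A2, the alpha-2 chain of collagen IX, rose with both (log2 fold change 0.61 and 0.70, edgeR adjusted p = 0.000146 and 1.71e-05).

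Genes that act on or with these proteins were counted in the same fit from 3 lists, whose counts stand beside the shares of all genes tested given above. Of 32 genes for collagen folding, modification and processing 28 were tested, of which 15 rose and 6 fell with shAHR#2, while 14 rose and 4 fell with shAHR#3, at a median log2 fold change of 0.18 and 0.25. The largest rises shared by both constructs were in P3H3, a collagen prolyl 3-hydroxylase family member (1.80 and 1.55), COLGALT2, a collagen galactosyltransferase (0.90 and 1.14), and P4HA1, the catalytic subunit of prolyl 4-hydroxylase, which makes the collagen helix stable (1.06 and 0.62). P4HA1 was at 88.0, 85.9 and 84.2 CPM in PLKO-GFP, at 181, 178 and 178 with shAHR#2 and at 133, 130 and 134 with shAHR#3. The largest shared falls were in ADAMTS14, a procollagen N-propeptidase (-1.11 and -1.90), P3H1 (-0.51 and -0.31) and TMEM38B (-0.27 and -0.23). P3H2, a prolyl 3-hydroxylase of basement membrane collagen, fell with shAHR#2 (-0.83, edgeR adjusted p = 9.86e-20) and rose with shAHR#3 (0.39, edgeR adjusted p = 8.6e-12).

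Of 61 other matrix glycoproteins and proteoglycans 34 were tested, of which 16 rose and 9 fell with shAHR#2, while 18 rose and 7 fell with shAHR#3, at a median log2 fold change of 0.19 and 0.30. CCN4, a CCN family protein of the Wnt pathway, had 1 count over the PLKO-GFP libraries and 139 and 141 over the shAHR#2 and shAHR#3 libraries, a ratio of 160 (95% exact counting interval 28.2 to 6353) and 136 (24.1 to 5421). FMOD, fibromodulin, a proteoglycan on collagen fibrils, lay within 0.226 to 0.456 CPM in PLKO-GFP, within 2.21 to 2.74 with shAHR#2 and within 2.81 to 3.498 with shAHR#3 (log2 fold change 2.78 and 3.12). SPOCK1, testican-1, rose by 3.47 and 1.59 on the log2 scale. The largest shared falls were in EFEMP1, fibulin-3 (-2.40 and -1.09), MATN2, matrilin-2 (-1.87 and -1.60), and MATN3, matrilin-3 (-1.64 and -1.09). EFEMP1 was the most abundant of these, at 149, 153 and 142 CPM in PLKO-GFP, 29.0, 29.2 and 25.7 with shAHR#2 and 69.6, 72.6 and 66.6 with shAHR#3.

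Of 32 receptors for collagen, laminin and fibronectin 25 were tested, of which 15 rose and 6 fell with shAHR#2, while 17 rose and 4 fell with shAHR#3, at a median log2 fold change of 0.15 and 0.32. ITGB4, the beta-4 integrin that holds hemidesmosomal laminin, rose by 1.25 and 1.39 on the log2 scale, ITGA5, the alpha chain of the classical fibronectin receptor, by 1.53 and 0.95, and ITGA2, a collagen and laminin receptor chain, by 1.59 and 0.86. ITGA5 was at 80.9, 81.3 and 86.4 CPM in PLKO-GFP, at 241, 244 and 236 with shAHR#2 and at 158, 159 and 165 with shAHR#3. CD44 (-0.23 and -0.49) and the syndecan SDC1 (-0.30 and -0.31) fell with both. ITGA1, ITGB3 and SDC2 fell with shAHR#2 and rose with shAHR#3, and SDC4 did the opposite. For the log2 fold changes given here for the genes of the 3 lists, the largest edgeR adjusted p was 0.00172.

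**Figure D5:**
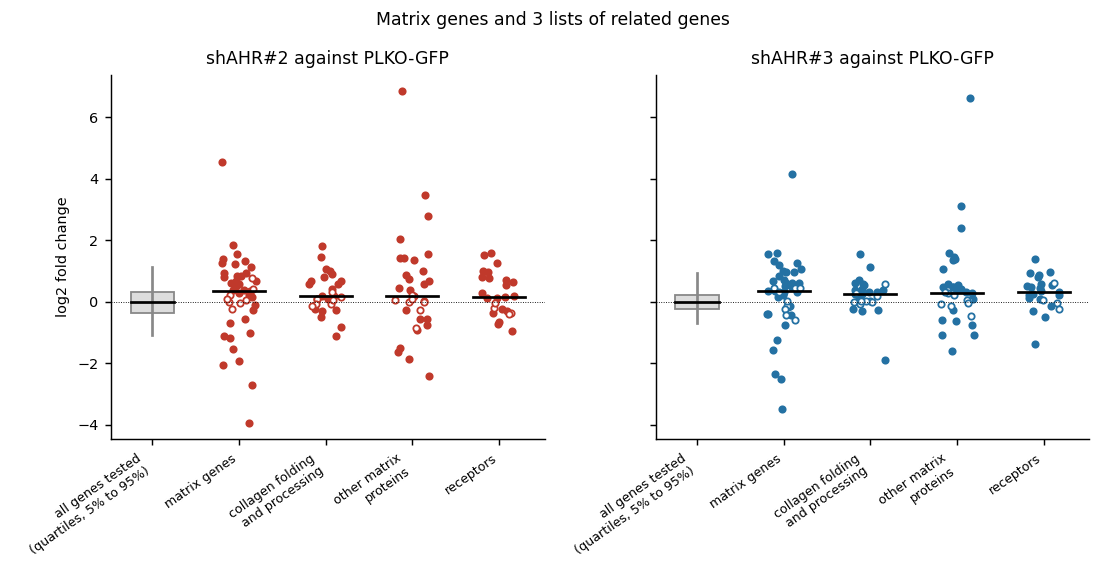
Log2 fold change against PLKO-GFP of the 46 tested matrix genes and of the tested genes of 3 related lists (points, filled where the edgeR adjusted p was under 0.05, line at the median), with shAHR#2 on the left and shAHR#3 on the right. The grey box and line give the quartiles and the 5th to 95th percentiles of all 14274 genes tested, whose median lies at 0 to 2 decimals, while the medians of the 4 sets lie between 0.15 and 0.36.

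The 250 bases before the RefSeq start site were available for 56 of the 73 genes and for 36 of the 46 tested. The xenobiotic response element core (GCGTG, which reads CACGC when the opposite strand is searched) occurred in the windows of 12 of the 36 (33.3%), against 36.2% of 27305 genes with a window. Of the genes with it, 8 rose and 3 fell with shAHR#2, 7 rose and 3 fell with shAHR#3, and the median log2 fold change was 0.49 and 0.54. The 24 windows without the core belonged to genes of which 14 rose and 6 fell with shAHR#2, and 14 rose and 5 fell with shAHR#3, with medians of 0.31 and 0.32. The AP-1 motif TGAGTCA, searched on the opposite strand as well where it reads TGACTCA, occurred in 2 of the 36 windows, those of LAMA3 and LAMB3 (5.56%, against 5.19% of all genes), and the cyclic AMP response element TGACGTCA in that of FN1 (2.78%, against 2.03%). No match of a motif overlapped that of another. Such short matches describe the letters of these windows and are not binding sites shown to be used.

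Exons of 26 of the 46 tested genes overlap those of another annotated gene, 22 on the opposite and 6 on the same strand. For 10 of them the highest library sum of the overlapping genes was at least 10% of the gene's own lowest library count. They were COL1A1, COL9A3, LAMA2, LAMA5, LAMB1, LOX, LOXL1, LOXL2, LOXL3 and THBS2. Because the strand setting of the counting is not given in the sources used here, reads could have been assigned to either gene. The neighbours were low for COL1A1 (3 to 11 counts against 102 to 262) and LAMA2 (0 to 2 against 12 to 42). For COL9A3, LOXL1 and LOXL3 the counts of the neighbours were above their own in every library.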

How the data were processed

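RNA from MDA-MB-231 cells of 3 groups (3 libraries each) was measured by sequencing. The authors prepared libraries with a stranded mRNA kit, sequenced single-end reads on a NextSeq instrument and deposited raw counts of reads per gene, without normalization. Reads were aligned with STAR to GRCh38.p13, and the submitters' processing notes also name FastQC, Subread and featureCounts. Their versions, the strand setting of the counting and the annotation release are not given in the sources used here. Depth was 15991396 to 20374460 counts per library, and no pair of replicates was as close as sampling noise alone would make it (chi-square over its degrees of freedom 1.80 to 4.80).

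From these counts, genes were kept by filterByExpr (minimum count 10, minimum total 15), which left 14274 genes with 99.9% of the counts. They were scaled by TMM and tested with the quasi-likelihood test of edgeR 4.0.16 (R 4.3.3, limma 3.58.1), in a single fit with 3 group means to the 9 libraries, without a block and with Benjamini-Hochberg adjustment over all genes tested (threshold 0.05). The spread between replicates beyond counting error was 2.96% (common coefficient of variation). The paper used DESeq2, which was run as an alternative (1.42.0). The fits were checked on simulated data. Positions and exon lengths are those of GENCODE release 44 on GRCh38, and promoter windows those of RefSeq on GRCh38.p14. Intervals and limits for counts of 0 (3 counts) cover counting error alone, since reads carry no molecular identifiers.

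The genes and the 3 related lists were chosen with earlier results of these data known. Of the genes tested, 1 is counted but not reported by name here. Genes were named where they were FN1, changed at least 2-fold with an adjusted p under 0.05 and at least 10 counts in every library of a group, were among the 8 highest per length in PLKO-GFP, or were chain partners of those, and, of each list, up to 3 shared rises and 3 shared falls. COL4A1, COL4A2, COL4A4, COL4A5, COL5A1, COL5A2, COL9A2, COL13A1, COL15A1, COL16A1, COL17A1, FBN1, HSPG2, LOX, LOXL1, LOXL4 and SPARC, untested genes, marker and neighbouring genes, and list genes that moved in opposite directions, were named after their values were seen. As alternatives, DESeq2 or its size factors replaced edgeR or TMM, the filter was dropped or raised to a mean of 50 counts, a fit held the compared groups alone, a replicate block was added, each library was left out, and the threshold was set at an adjusted p under 0.01 or at an added log2 change of 1. The same alternatives for the lists were added after seeing the data.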

Additional observations from a re-analysis of the deposited data

Results flagged for a closer look

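The constructs moved 4 genes in opposite directions relative to the shared PLKO-GFP libraries, and the direct comparison of shAHR#3 with shAHR#2 passed the threshold for each. COL4A5 had a log2 difference of -0.97 (standard error 0.10, edgeR adjusted p = 6.92e-10), COL13A1 of -0.64 (standard error 0.031, edgeR adjusted p = 3.07e-19) and LAMB3 of -0.56 (standard error 0.032, edgeR adjusted p = 3.75e-17). COL5A1 had a log2 difference of 0.26 (standard error 0.030, edgeR adjusted p = 4.69e-09), the smallest of the 4. In each of these genes the libraries of the 3 groups did not overlap.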

How the results depend on the processing

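With an absolute log2 fold change of at least 1, 8 of the 46 genes were higher with shAHR#2, 8 higher and 5 lower with shAHR#3, and 2 higher and 0 lower with shAHR#3 than with shAHR#2. Under the same threshold in the collagen folding list 4 rose and 1 fell with shAHR#2, and 2 rose and 1 fell with shAHR#3, in the same order, the other matrix proteins gave 8, 4, 8 and 3, and the receptors 4, 0, 1 and 1. A mean of at least 50 counts, which left fewer genes to test, gave 7 matrix genes lower with shAHR#2 and 9 of the other matrix proteins higher. Every other count, including those with DESeq2, stayed within 1.5 times its main value. Without any single library, 25 to 29 matrix genes rose and 11 to 12 fell with shAHR#2, 26 to 27 rose and 10 to 11 fell with shAHR#3, and 11 to 13 and 15 to 17 in the direct comparison.

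Replicate numbers did not pair the libraries (correlations of deviations of same-numbered libraries -0.0513 to 0.0764), and with a replicate block the counts were 26 and 12 with shAHR#2, 26 and 11 with shAHR#3, and 12 and 16 in the direct comparison, as without it.

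Of 1818 alternative values of 123 log2 fold changes of named genes, 1776 kept direction and side of the threshold, 20 lost and 16 gained a call, and 6 changed sign, none of which was called. Without single libraries, COL18A1 ranged from -0.0786 to 0.0183 and THBS2 from -0.2306 to 1.2362 between the constructs, LAMA3 from -0.0002 to 0.0305 with shAHR#3, and LAMB2 from -0.0281 to 0.0191 with shAHR#2. The cause was not tested. Low counts limit THBS2, LAMA1, LAMA2, COL1A2, COL4A4, COL5A2, COL8A2, COL9A3, COL15A1, COL16A1, LOXL3 and SPARC, with at most 60 counts in any library.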

Other observations

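AGRN, LAMA5, COL18A1 and COL7A1, chosen after their values were seen, had their lowest shAHR#3 value in replicate 2 and their highest in replicate 3. AGRN was at 174, 162 and 197 CPM in shAHR#3 replicates 1, 2 and 3, LAMA5 at 304, 288 and 319, COL18A1 at 322, 299 and 343, and COL7A1 at 73.3, 66.4 and 76.9.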
